A study of Homo sapiens with 6 samples.

Results

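Moesin (MSN), ezrin (EZR) and radixin (RDX), together the ERM proteins, were examined with 7 genes that act on or with them, in MDA-MB-231 cells made resistant to Adriamycin (ADR) and in the parent cells. The 10 genes were taken by name: the 3 ERM genes, their relative NF2 (merlin), the kinases STK10, SLK and ROCK1, the scaffold SLC9A3R1, and the membrane proteins CD44 and PODXL. All 10 were found once by name among 58735 genes listed, and all 10 were among the 15242 genes with enough counts to be tested. MDA-MB-231 is a line from a triple-negative breast cancer, one that lacks the estrogen and progesterone receptors and ERBB2 amplification, and ADR (doxorubicin) is an anthracycline that poisons topoisomerase II.

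RNA from 3 parent libraries (genotype WT) and 3 libraries of ADR resistant cells (ADRr) was sequenced. Both came from the same line and the same serum-containing medium. According to the study's methods, ADRr cells were selected by stepwise exposure to rising ADR and single clones were then isolated by limiting dilution. The comparison is therefore between a selected clonal line and its unselected parent, and the effects of resistance and of clonal origin cannot be told apart. Whether ADR was present at harvest, and whether the 3 libraries of a group came from separate cultures, was not given in the sources used here, so p-values measure the spread between these libraries. The series' description also speaks of 3 time points, which no sample label names, so whether the 3 libraries of a group differ in time is not known. Total counts were 15983985 to 18272314 per library. ESR1 and PGR had a normalized count of at most 0.311 on average in either group. KRT18 went from 4413 to 2803 and VIM from 8812 to 5981 normalized counts. Of 6 tested identity genes, 5 were called lower and 1 higher, beside 29.6% and 29.2% of all tested genes. This list mixes 2 kinds of gene. Those taken as present in the line were all called lower. Of those taken as low in it, ERBB2 and CDH1 were called lower and EPCAM higher. Of 10 leukocyte and endothelial markers, 8 were too low to test, with at most 7 counts in a library. CD14 and PECAM1 were tested and not called. Normalized counts here are counts scaled by edgeR to a common library size. A gene was called when its Benjamini-Hochberg adjusted p from edgeR's quasi-likelihood test did not exceed 0.05 and its level differed 1.2-fold or more, which is 0.263 on the log2 scale.

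ERM proteins fasten the actin cortex to the plasma membrane. Their FERM domain at one end binds the tails of membrane proteins such as CD44, or scaffolds such as SLC9A3R1 (also called NHERF1 or EBP50), and the other end binds F-actin. In the closed, inactive form the ends hold each other. Binding of the lipid PIP2 and phosphorylation of a threonine near the end of the protein open it. STK10 (LOK), SLK and ROCK1 have each been shown to phosphorylate ERM proteins. Merlin is an ERM relative that restrains growth and lacks the usual actin-binding end.

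The codon for the regulated threonine is shown for the 3 ERM genes, since phosphorylation of this residue helps to open the protein. Each line gives 45 coding bases from GENCODE 29 transcripts, 5′ to 3′ on the coding strand, with the threonine codon in capitals.
MSN: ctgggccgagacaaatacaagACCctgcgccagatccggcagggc
EZR: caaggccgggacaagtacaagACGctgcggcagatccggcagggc
RDX: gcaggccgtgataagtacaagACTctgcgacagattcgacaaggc
The codon was at position 558 of 577 in MSN (GRCh38, chrX:65739831-65739833, plus strand, exon 13 of 13), at 567 of 586 in EZR (chr6:158766974-158766976, minus strand, exon 13 of 13) and at 564 of 583 in RDX (chr11:110231929-110231931, minus strand, exon 14 of 14). In each protein it lay 19 residues before the end, and no match to the same residues was found in NF2. The MSN and EZR stretches shared 39 of 45 bases, EZR and RDX 36, and MSN and RDX 34. Over the aligned coding sequences, identity was 74.9% for MSN and EZR, 71.7% for MSN and RDX, 70.5% for EZR and RDX, and 61.9 to 65.7% for NF2 with each of them. The longest run of identical bases between any pair was 32, and no stretch of 100 bases was shared between 2 of the 10 genes. Gene counts hold no information on phosphorylation.

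Of the 10 genes, 3 were called higher in ADRr cells (STK10, CD44 and ROCK1), 4 were called lower (PODXL, EZR, RDX and SLC9A3R1) and 3 were not called (SLK, MSN and NF2). Among all tested genes 29.2% were called higher and 29.6% lower, 58.8% in all, so 7 of 10 is close to the background. For 9 of the 10 genes every library of one group lay beyond every library of the other, against 69.2% of all tested genes. In bulk RNA of this kind, fewer cells that express a gene and less of its RNA per cell cannot be told apart. The median size of the log2 fold change was 0.48 over the 10 genes and 0.46 over all tested genes. The values below therefore describe which members differed and in which direction, and the set as a whole is not called different from other genes.

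**Figure D1:**
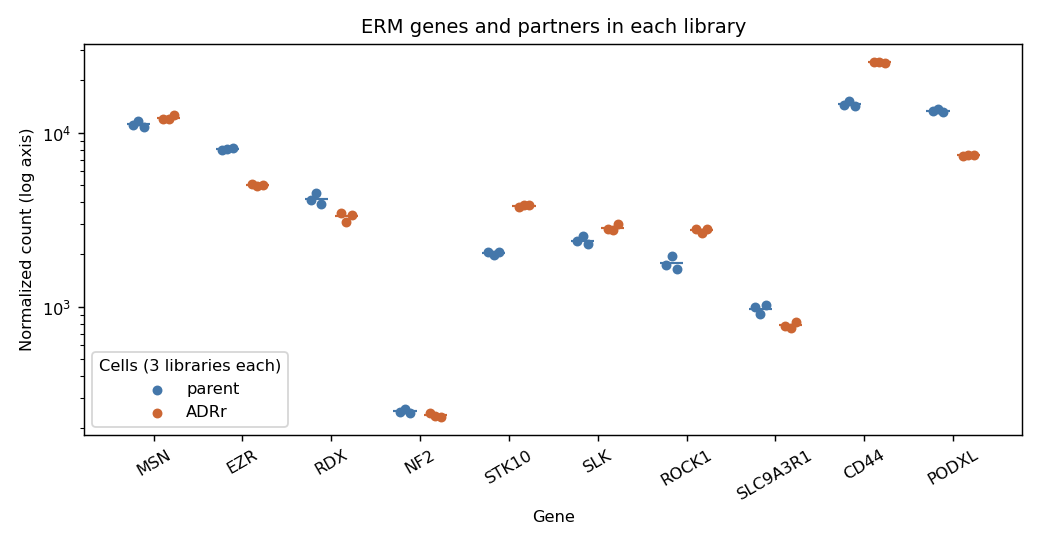
Normalized count (log axis) of each of the 10 genes in each of 3 parent and 3 ADRr libraries, where points are libraries and lines are group means. CD44, STK10 and ROCK1 lay higher in all ADRr libraries, PODXL, EZR, RDX and SLC9A3R1 lower, MSN and SLK lay higher without a call, and NF2 overlapped.

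The RNA of MSN, the ERM protein at the centre of the study, differed by less than the fold threshold. By western blot, the study reports MSN protein as overexpressed in ADRr cells compared with lines resistant to other drugs. Its blots also held the parent line, the comparison made here. When setting ADRr cells against the naive line, the study describes the ADRr cells as those with higher MSN expression. Protein was not measured in the data used here. MSN (ENSG00000147065, chrX:65588377-65741931, plus strand) had 11080, 11680 and 10783 normalized counts in the parent libraries and 11999, 12020.5 and 12694 in the ADRr libraries. Each ADRr library lay above each parent library, but the means (11181 ± 457 and 12238 ± 395, SD, n = 3) differed by a log2 fold change of 0.13 (SE 0.047, adjusted p = 0.018 from edgeR). MSN missed the fold threshold and was not called. Its adjusted p from edgeR passed 0.05 with all 6 libraries but not without parent replicate 1 (0.088), parent replicate 3 (0.058) or ADRr replicate 3 (0.096), where the log2 fold change was 0.12, 0.10 and 0.10. MSN shares 0.238% of its 100-base stretches with its pseudogene MSNP1, which had 20.2 ± 5.7 and 18.3 ± 6.8 normalized counts and was not called.

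EZR, the main ERM protein of many epithelia, was lower. EZR (ENSG00000092820, chr6:158765741-158819412, minus strand) had 7998, 8027 and 8155 normalized counts in the parent libraries and 5064.5, 4949 and 4997 in the ADRr libraries. The groups stood far apart compared with their SDs of 83.7 and 58.0, and the log2 fold change was -0.69 (SE 0.046, adjusted p = 9.3e-12 from edgeR). Its antisense gene EZR-AS1 was too low to test, with 0 and 0.698 normalized counts on average.

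RDX, the third ERM gene, was lower by a smaller amount. RDX (ENSG00000137710, chr11:109864295-110296722, minus strand) had 4131, 4518.5 and 3876.5 normalized counts in parent and 3451.5, 3074 and 3384 in ADRr libraries, without overlap. The log2 fold change was -0.34 (SE 0.060, adjusted p = 3.5e-05 from edgeR). When the fold of 1.2 was built into the test (glmTreat), RDX lost its call with an adjusted p of 0.074. The annotated span of RDX overlaps ZC3H12C, a gene on the opposite strand with 2206 to 2335 counts in parent and 4319 to 5006 in ADRr libraries, but the exons of the 2 genes share 0 bases in GENCODE 29.

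NF2, the merlin gene, was the lowest of the 10. NF2 (ENSG00000186575, chr22:29603556-29698598, plus strand) had 250, 258.5 and 246 normalized counts in parent and 246.5, 235.5 and 232.5 in ADRr libraries. One ADRr library lay within the parent range, and the log2 fold change of -0.08 (SE 0.10, adjusted p = 0.52 from edgeR) was smaller than its error.

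FPKM, which divides a count by the exon length of its gene and the depth of its library, was used to compare levels between genes. That length takes in all annotated exons of a gene, and which transcripts the cells made was not measured. Per length the order of the ERM genes was turned. In parent cells EZR was the highest at 138 ± 1.1 FPKM, followed by MSN at 107 ± 4.4 and RDX at 28.0 ± 2.2. In ADRr cells MSN was the highest at 118 ± 4.1 FPKM, followed by EZR at 85.9 ± 1.1 and RDX at 22.2 ± 1.4 (SD, n = 3). No EZR library overlapped a MSN library within either group. In normalized counts, not divided by length, MSN was above EZR in both groups (11181 against 8060 in parent, 12238 against 5003 in ADRr). The order in parent cells therefore rests on the exon lengths, 5971 bases for MSN and 3342 for EZR. The 3 genes together made up 268 to 279 FPKM in parent and 220 to 231 FPKM in ADRr libraries.

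Within each library MSN made up 39.2, 40.0 and 38.4% of the summed ERM FPKM in parent cells and 51.1, 52.2 and 52.9% in ADRr cells. This share does not depend on how libraries are scaled. The mean was 12.9 percentage points higher in ADRr cells, while the share of EZR went from 50.5% ± 1.4 to 38.1% ± 0.74 and that of RDX from 10.2% ± 0.59 to 9.84% ± 0.48. The two-sided exact permutation test gave p = 0.10 for MSN and for EZR, the smallest value that 3 against 3 libraries allow, and p = 0.50 for RDX. The ratio of EZR to MSN was 1.23 to 1.35 in parent and 0.703 to 0.754 in ADRr libraries, a log2 difference of -0.82. The ratio of RDX to MSN was 0.252 to 0.271 in parent and 0.179 to 0.201 in ADRr libraries, a log2 difference of -0.47. In all, 5 gene pairs were compared in this way, and each gave an exact permutation p of 0.10, also 0.10 after Benjamini-Hochberg adjustment over the 5, so that none could reach 0.05.

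**Figure D2:**
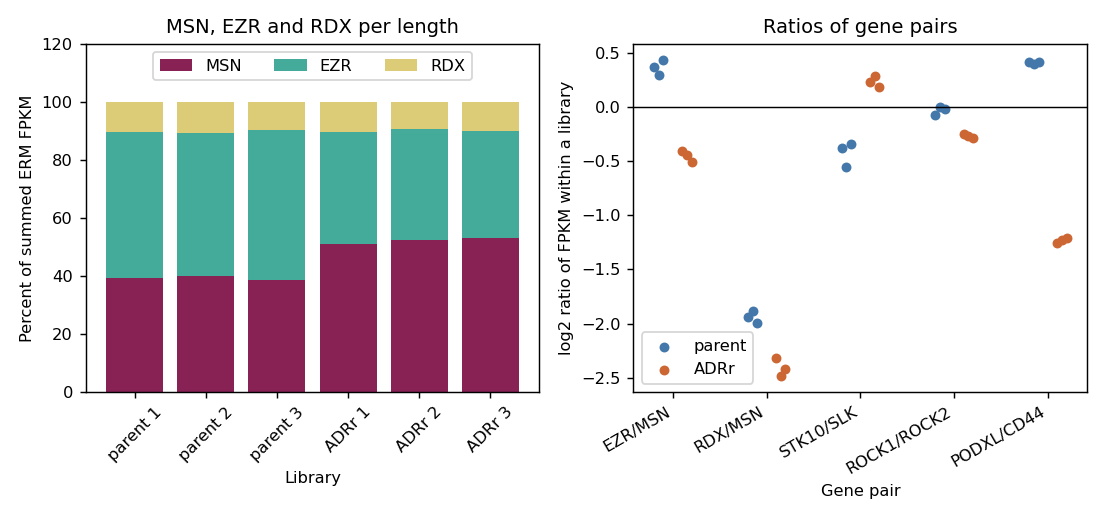
Left, the percent of summed ERM FPKM taken by MSN, EZR and RDX in each library. Right, the log2 ratio of FPKM of 5 gene pairs, where each point is a library. MSN took 38.4 to 40.0% in parent and 51.1 to 52.9% in ADRr libraries, and in all 5 pairs the groups did not overlap.

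Among the 3 kinases of the set, STK10 rose the most. STK10 (ENSG00000072786, chr5:172042073-172188386, minus strand) had 2071.5, 1982 and 2056 normalized counts in parent and 3755, 3838 and 3854 in ADRr libraries. The fitted fold was 1.87, a log2 fold change of 0.91 (SE 0.052, adjusted p = 5.3e-13 from edgeR).

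SLK, the close relative of STK10, had 2373, 2550 and 2286 normalized counts in parent and 2806, 2774 and 2972 in ADRr libraries (ENSG00000065613, chr10:103967201-104029233, plus strand). The groups did not overlap, but the log2 fold change of 0.25 (SE 0.056, adjusted p = 0.00052 from edgeR) lay just under the fold threshold. SLK was called when scaled by library size alone (0.27), without parent replicate 2 (0.29), without ADRr replicate 1 (0.27) and without ADRr replicate 2 (0.27), so its side of the threshold was not stable. Per length, STK10 stood at 0.682 to 0.790 of SLK in parent libraries and at 1.14 to 1.21 of SLK in ADRr libraries, a log2 difference of 0.66.

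ROCK1, which also phosphorylates the light chain and the phosphatase of myosin, rose as well. ROCK1 (ENSG00000067900, chr18:20946906-21111851, minus strand) had 1740, 1968 and 1659 normalized counts in parent and 2797, 2655 and 2811 in ADRr libraries. ROCK1 differed by 0.62 on the log2 scale (SE 0.062, adjusted p = 7.7e-09 from edgeR). ROCK1 shares 5.92% of its 100-base stretches with the pseudogene ROCK1P1, whose own count was low (18.8 ± 9.4 and 21.7 ± 6.9 normalized counts). Its paralog ROCK2 went from 1673 ± 132 to 3030 ± 101, a log2 fold change of 0.86 (SE 0.060, adjusted p = 2.2e-11 from edgeR). ROCK1 was 0.947 to 0.997 of ROCK2 per length in parent libraries and 0.820 to 0.842 in ADRr libraries, a log2 difference of -0.23.

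The scaffold SLC9A3R1, which links ERM proteins to membrane transporters and receptors, was lower. SLC9A3R1 (ENSG00000109062, chr17:74748652-74769353, plus strand) had 991, 914 and 1025 normalized counts in parent and 773, 756 and 819 in ADRr libraries. The log2 fold change was -0.32 (SE 0.071, adjusted p = 0.00039 from edgeR), and glmTreat at a fold of 1.2 gave an adjusted p of 0.15. It shares 6.75% of its 100-base stretches with AC016888.1, an antisense gene that overlaps SLC9A3R1 on the opposite strand. AC016888.1 had at most 2 counts in a library. The related scaffold SLC9A3R2 went the other way, from 1595 ± 114 to 2575 ± 52.6 normalized counts (log2 fold change 0.69, SE 0.059, adjusted p = 6.9e-10 from edgeR).

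CD44, the hyaluronan receptor whose tail binds ERM proteins and merlin, was the most abundant member in ADRr cells. CD44 (ENSG00000026508, chr11:35138870-35232402, plus strand) had 14531.5, 15129 and 14270 normalized counts in parent and 25597.5, 25391 and 25297 in ADRr libraries. Expressed on the log2 scale the fold change was 0.80 (SE 0.043, adjusted p = 2.2e-13 from edgeR). Counts per gene do not tell the standard form from the variant forms that splicing makes. CD44-AS1, annotated on the opposite strand within CD44, went from 16.7 ± 4.9 to 43.7 ± 11.2 normalized counts (log2 fold change 1.38, SE 0.32, adjusted p = 0.00073 from edgeR). Its counts were 0.152% of those of CD44, and since the strand setting of the counting was not given in the sources used here, reads of the 2 genes may not be separable.

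PODXL (podocalyxin), a sialomucin tied to the cortex through ezrin and SLC9A3R1, fell the most of the 10. PODXL (ENSG00000128567, chr7:131500262-131558217, minus strand) had 13343, 13713 and 13083 normalized counts in parent and 7369, 7426 and 7494 in ADRr libraries. The log2 fold change was -0.85 (SE 0.045, adjusted p = 1.5e-13 from edgeR). In each parent library PODXL was 1.32 to 1.34 times CD44 per length, and in each ADRr library 0.419 to 0.431 times CD44, a log2 difference of -1.65. Of the 5 pairs this was the widest difference. In normalized counts CD44 was above PODXL in parent cells too (14644 against 13380), so their order there also rests on exon length.

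**Figure D3:**
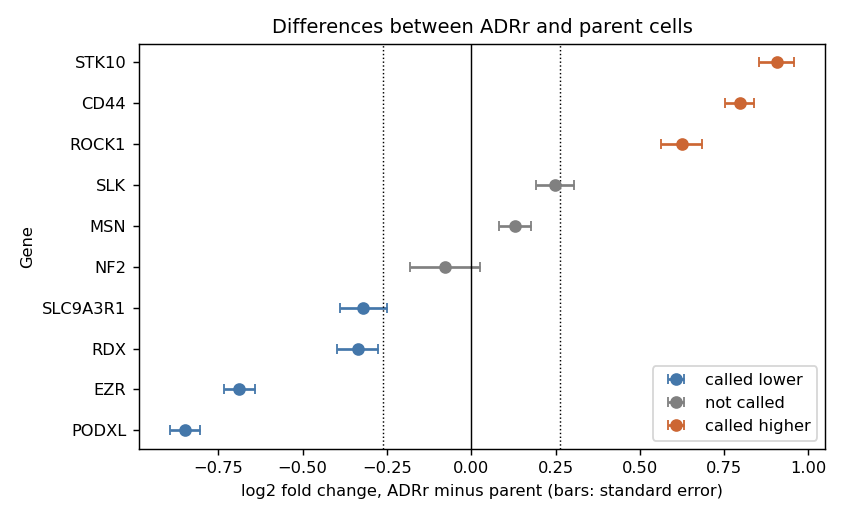
The log2 fold change of ADRr minus parent for the 10 genes from edgeR, with bars for the standard error and dotted lines at the fold threshold of 1.2. STK10 was the highest at 0.91 and PODXL the lowest at -0.85, while SLK, MSN and NF2 lay inside the dotted lines.

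Over all 10 genes, the order by FPKM in parent cells was EZR, PODXL, MSN, CD44, RDX, SLC9A3R1, SLK, STK10, ROCK1 and NF2, from 138 to 2.01 FPKM. Only PODXL (109 to 114 FPKM) and MSN (103 to 112 FPKM) overlapped as neighbours. In ADRr cells the order was CD44, MSN, EZR, PODXL, STK10, RDX, SLK, SLC9A3R1, ROCK1 and NF2, from 146 to 1.91 FPKM. There RDX overlapped SLK, and SLK overlapped SLC9A3R1. The 4 highest genes were the same in both groups and lay above at least 95.9% of tested genes in both, and NF2 lay above 32.8% in parent and 31.8% in ADRr cells.

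Genes beside each member were read as a description of its surroundings. Over all tested genes, 29.2% were called higher and 29.6% lower. Among the 10 tested genes on either side, the median log2 fold change was -0.34 around EZR, where 11 of 20 were called lower. It was 0.31 around ROCK1 (10 of 20 called higher), 0.56 around ROCK2 (13 of 20 called higher) and 0.30 around SLK (11 of 20 called higher). Around SLC9A3R1 it was 0.41, with 12 of 20 called higher while SLC9A3R1 itself was lower. Around the other 6 members it lay between -0.08 and 0.20. The surroundings of the other genes named below were not read in this way. Of these, ADAM17 starts at chr2:9488486, on the chromosome of ROCK2 (chr2:11179761), and both were called higher. ADAM10 (chr15:58588807) and TLN2 (chr15:62390526), both called lower, also share a chromosome. Whether position plays a part was not tested.

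Other genes of the pathway were taken from lists by function and are given as counts beside the 29.2% and 29.6% above. Of 13 tested other kinases of ERM proteins or merlin, 6 were called higher and 1 lower. MAP4K4 went from 4337 ± 128 to 8824 ± 259 normalized counts (log2 fold change 1.02, SE 0.048), STK24 from 1334 ± 34.4 to 2705 ± 95.1 and TNIK from 244 ± 21.4 to 453 ± 36.0. PAK2, a merlin kinase, and STK26 were the others called higher beside ROCK2. MINK1 was called lower, from 3012 ± 276 to 2064 ± 66.1. PRKCA (log2 fold change -0.16), PAK1 (-0.07) and CDC42BPA (-0.03) were not called.

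Of 5 tested phosphatase genes and regulators, 3 were called higher and 1 lower. PPP1CB, the catalytic subunit of the myosin phosphatase that also acts on ERM proteins, went from 2195 ± 155 to 3643 ± 109 normalized counts, PTP4A3 (PRL-3) from 118 ± 30.1 to 309 ± 24.4, and PPP1R14B, which encodes an inhibitor of protein phosphatase 1, from 3804 ± 535 to 5528 ± 163. PPP1R12B, a targeting subunit, was called lower (log2 fold change -0.77), and its paralog PPP1R12A was not called (-0.02).

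All 8 tested genes of the other membrane partners reported here were called, 4 higher and 4 lower. L1CAM, an adhesion molecule, went from 2691 ± 193 to 6104 ± 139 normalized counts (log2 fold change 1.18), SELPLG, a ligand of selectins, from 64.1 ± 8.9 to 134 ± 10.7 (1.06) and the adhesion molecule ICAM2 from 106 ± 19.7 to 164 ± 25.6 (0.63). The sialomucin relatives of PODXL were both called lower, CD34 from 99.1 ± 16.1 to 10.9 ± 3.3 (-3.19) and PODXL2 from 395 ± 58.8 to 55.1 ± 22.0 (-2.86). SDC2, a heparan sulfate proteoglycan, went from 1246 ± 43.1 to 321 ± 18.0 (-1.96).

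Of 13 tested scaffold and cortex genes, 3 were called higher (SLC9A3R2, EPS8 and CLIC1) and 6 lower. CLIC1 lost its call without parent replicate 2, where its log2 fold change was 0.26. The cytoplasmic actin ACTB went from 112511 ± 5532 to 43609 ± 1528 normalized counts (log2 fold change -1.37, SE 0.044, adjusted p = 2.5e-17 from edgeR). The bundling protein FSCN1 (-1.12) and CLIC5 (-2.54), a partner of ezrin in microvilli, were called lower as well.

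**Figure D4:**
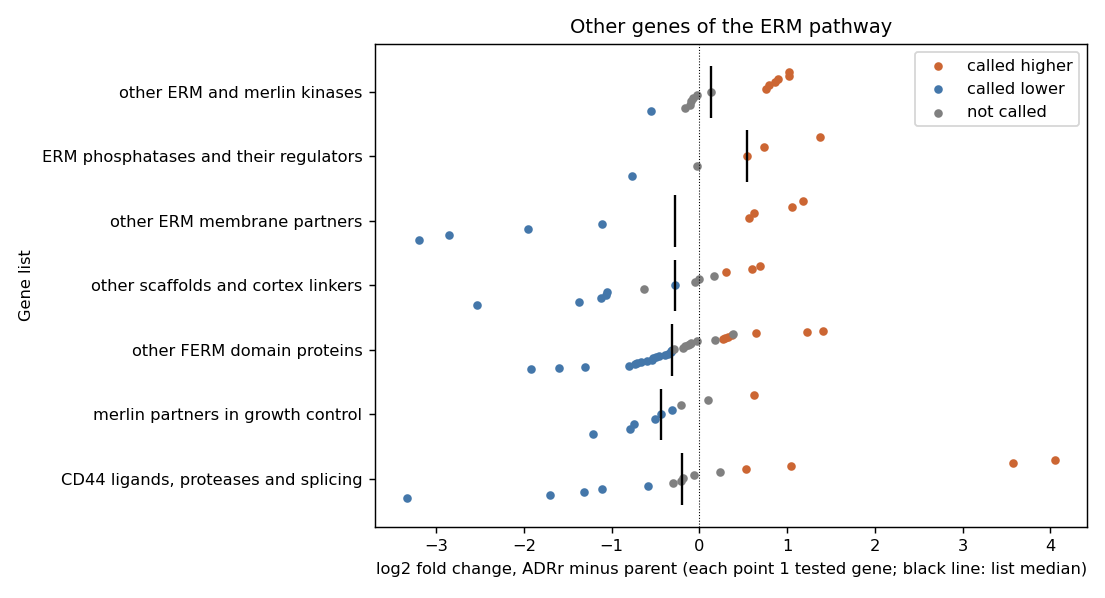
The log2 fold change of ADRr minus parent for each tested gene of 7 lists of pathway genes, where points are genes coloured by call and black lines are list medians. Medians lay between -0.44 for merlin partners and 0.54 for phosphatases and their regulators, beside -0.006 over all tested genes.

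Of 33 other tested genes with a FERM domain, 7 were called higher and 17 lower, with a median log2 fold change of -0.32. FERMT3 (1.41), EPB41L5 (1.22) and FRMD4A (0.65) had the largest increases, and FRMD4B (-1.92), FRMD3 (-1.30) and TLN2 (-0.80) the largest decreases among genes with at least 50 normalized counts. JAK2, the kinase downstream of cytokine receptors, had 99.8, 70.3 and 102 normalized counts in parent and 99.9, 132 and 125 in ADRr libraries. Its groups overlapped and it was not called (log2 fold change 0.38, SE 0.18, adjusted p = 0.061 from edgeR). It was called without parent replicate 3 (0.47), without ADRr replicate 1 (0.51) and with scaling by library size alone (0.41). Of the other JAK genes, JAK1 was called higher (log2 fold change 0.32), while TYK2 (-0.67) and JAK3 (-1.60) were called lower. JAK3 was low in both groups, at 37.8 and 12.3 normalized counts on average.

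Of 9 tested partners of merlin in growth control, 6 were called lower and 1 higher. WWC1 (KIBRA) went from 5534 ± 303 to 2394 ± 56.2 normalized counts (log2 fold change -1.21). AMOTL1, an angiomotin (-0.80), and DCAF1, the ligase subunit that merlin inhibits (-0.75), were also called lower. STK4 (MST1), a Hippo kinase, was called higher (0.62).

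Of 14 tested genes in a list of CD24 and genes that make, bind, cut or splice CD44 or its ligand, 4 were called higher and 5 lower. Both ADAM sheddases were called, in opposite directions, with ADAM10 going from 9622 ± 568 to 2954 ± 101 normalized counts (log2 fold change -1.70, SE 0.053) and ADAM17 from 855 ± 56.2 to 1756 ± 77.7 (1.04, SE 0.066). MMP9, which docks on CD44, rose from 12.9 ± 4.2 to 218 ± 15.8 (4.05), and MMP14, which cuts it, from 6705 ± 407 to 9720 ± 330 (0.54). SRGN (-1.31), a proteoglycan that binds CD44, and the hyaluronidase HYAL2 (-1.10) were called lower. CD24, often read with CD44 as a surface marker of stem-like breast cancer cells, was low in both groups. It had 18.9 ± 1.1 and 16.5 ± 2.7 normalized counts and was not called (adjusted p = 0.66 from edgeR).

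The genes whose pattern over the 6 libraries was most like that of MSN, by Pearson's r on log2 counts scaled to depth, were USP38 (r = 0.997), TTLL7 (0.995) and STK38L (0.994). With 6 points in 2 groups such values are common, and 183 tested genes reached 0.95 or more.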

How the data were processed

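Polyadenylated RNA was sequenced as paired-end reads, mapped with HISAT2 2.0.5 to GRCh38 and counted per gene with featureCounts 1.5.0-p3, after cleaning for which the labels name fastp (submitters' processing notes). The authors deposited raw counts per gene and FPKM. The 58735 identifiers were all in GENCODE 29. Tests used edgeR 4.0.16 (R 4.3.3) on the deposited counts with TMM scaling, filterByExpr and Benjamini-Hochberg adjustment over 15242 genes; DESeq2 1.42.0 and limma 3.58.1 gave alternatives. SE is the log2 fold change divided by the square root of F. Ratios and shares used FPKM and exact permutation tests over libraries. With 3 counts as the floor, the detection limit was 0.164 to 0.188 CPM. Replicate pairs differed beyond sampling noise (chi-square over its degrees of freedom 2.52 to 7.71). The tests were checked on simulated data in which few genes changed, each well beyond the 1.2 fold. Differences near that fold were not covered by the check.

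From each list, up to 3 called genes with the largest increase and 3 with the largest decrease and a mean of at least 50 normalized counts were named, besides ROCK2, SLC9A3R2, JAK2, CD24 and the copies and antisense genes. PRKCA, PAK1, PAK2, STK26, CDC42BPA, PPP1R12A, CD14, PECAM1, VIM, JAK1, JAK3 and TYK2 were named after their values were seen. The genes and lists were chosen with earlier results of these data known. A list of pathway genes and a membrane partner are not reported here.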

Additional observations from a re-analysis of the deposited data

How the results depend on the processing

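The members called lower were 4 under each alternative scaling, filter and tool tried, DESeq2 and limma-trend on log2 FPKM among them, and with each library left out. Those called higher were 3, or 4 with SLK (library size alone, and without parent replicate 2, ADRr replicate 1 or ADRr replicate 2). Judged by adjusted p alone, 5 members were called higher, with MSN and SLK added. When a log2 fold change of 1.2 or more was required in either direction, 0 were higher and 0 lower, and with glmTreat 2 were lower. In the lists at that stricter fold, calls higher and lower were 0 and 0 for kinases, 1 and 0 for phosphatases, 0 and 3 for membrane partners, 0 and 2 for scaffolds, 2 and 3 for FERM genes, 0 and 1 for merlin partners and 2 and 3 for CD44 genes. By adjusted p alone, 2 kinases were lower. With glmTreat, 4 FERM genes were higher. With limma-trend on log2(FPKM + 1), 11 FERM genes were lower, and with at least 10 counts in every library 2 CD44 genes were higher. The cause was not tested where the construction of the alternative (a stricter fold, fewer genes) does not show it. With counts not divided by length, the changes in ERM share were 11.8 percentage points for MSN, -10.1 for EZR and -1.74 for RDX. Fold changes were followed across the alternatives for 67 genes, the members among them. Within these, no fold change of a member or a called gene reversed. Of genes near 0 and not called, the log2 fold change changed sign with a library left out, ranging from -0.43 to 0.11 for MSNP1, -0.16 to 0.55 for ROCK1P1, -0.082 to 0.031 for CDC42BPA, -0.094 to 0.030 for PPP1R12A (0.00177 with library size alone), -0.13 to 0.024 for ESRP2, -0.28 to 0.056 for CD14 and -0.11 to 0.59 for PECAM1. Replicate numbers did not pair the libraries: deviations of same-numbered libraries correlated at 0.00735, -0.0213 and -0.0457. A fit with the replicate block called 3 members higher and 4 lower, and gave MSN an adjusted p of 0.054. With 3 libraries per group, differences near the 1.2 fold cannot be placed firmly on either side, as for SLK, RDX and SLC9A3R1.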

Other observations

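The epithelial gene EPCAM went from 215 ± 47.6 to 461 ± 6.4 normalized counts (called higher), while CDH1 went from 252 ± 26.7 to 121 ± 19.2 and ERBB2 from 2059 ± 164 to 870 ± 46.4 (both called lower). The epithelial splicing gene ESRP1, chosen after its values were seen, was at 1.03 to 2.16 normalized counts in parent and 16.7 to 26.7 in ADRr libraries, and ESRP2 was not called (log2 fold change -0.06).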
